A study of Mus musculus with 24 samples.

Results

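The genes described here were 31 lysosome genes, followed in CD4+ T cells from mouse spleen before and after stimulation through the T cell receptor. Members were taken by symbol from a named list of lysosomal membrane proteins, cathepsins, glycosidases, lipid-handling proteins, other lysosomal proteins and transcription factors. All 31 were found among the 54446 gene identifiers of the count table. Of those identifiers, 31367 had at least 1 count. The cells came from the spleens of wild-type (WT) C57BL6 mice and of mice on the same strain background that lack Aim2 (Aim2-/-), which encodes a cytosolic DNA sensor. The age and sex of the mice are not given in the sources used here. Cells of 3 mice per genotype (WT 1, 3 and 4, and Aim2-/- 1, 2 and 4) were cultured in RP10 medium and collected without stimulation (0 h) or after 3, 6 and 24 h with antibodies against CD3 and CD28, which gave 24 mRNA libraries in 8 groups of 3. The 0 h libraries are the only unstimulated ones, so time in culture and stimulation cannot be told apart.

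Lysosomes are acidic organelles in which proteins, glycans and lipids are broken down. Their lumen holds cathepsins, which are proteases, together with glycosidases and lipid hydrolases, while heavily glycosylated proteins such as LAMP1 and LAMP2 line the membrane. TFEB and TFE3 are related transcription factors that bind E-box sequences in the promoters of many lysosomal genes, and the kinase complex mTORC1 on the lysosomal surface keeps them out of the nucleus when nutrients are plentiful. In resting T cells lysosomes recycle membrane and support survival, and cathepsins are also abundant in macrophages, dendritic cells and B cells.

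The E-box, with the letters CACGTG, is the sequence through which these factors bind, and it is shown because it was frequent in front of the members. RefSeq promoter windows (build GRCm38.p6, 250 bases before to 50 bases after each gene start) matched 27 of the 31 members, and 5 of them had more than 1 window. CACGTG, which reads the same on both strands, was present for 11 of the 27 members (40.7%), against 8.09% of all 27025 genes with a window and 11.6% of those tested for expression. A longer 8-base form, TCACGTGA, which contains the E-box and also reads the same on both strands, was present for 5 members (18.5%) against 1.12% of all genes and 2.16% of those tested. The related TCATGTGA, searched on both strands and not containing the E-box, was present for 3 members (11.1%) against 1.15% of all genes and 0.972% of those tested. Lamp1 had 4 cores in the 62 bases that end 5 bases before its start, printed here 5′ to 3′ on the strand of the gene with each core in capitals.
Lamp1, chr8:13159095-13159156, plus strand: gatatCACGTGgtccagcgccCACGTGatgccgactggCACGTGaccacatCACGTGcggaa
The 5 members with the 8-base form are given next, each in a stretch of 30 bases with the 8 bases in capitals.
Ctsa, chr2:164833749-164833778, plus strand: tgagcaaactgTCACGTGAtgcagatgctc
Ctsd, chr7:142387908-142387937, minus strand: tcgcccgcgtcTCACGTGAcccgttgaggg
Gla, chrX:134601182-134601211, minus strand: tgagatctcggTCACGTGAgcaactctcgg
Mcoln1, chr8:3500462-3500491, plus strand: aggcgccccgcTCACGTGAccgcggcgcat
Cln3, chr7:126583340-126583369, minus strand: cacgggtactgTCACGTGAcccccaacctg
A stretch of 30 bases around the single core, in capitals, is shown for the member that fell most after stimulation (Ctsf) and for a pair of members that rose (Glb1 and Naglu).
Ctsf, chr19:4855074-4855103, plus strand: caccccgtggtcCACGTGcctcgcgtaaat
Glb1, chr9:114401018-114401047, plus strand: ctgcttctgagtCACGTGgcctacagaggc
Naglu, chr11:101070009-101070038, plus strand: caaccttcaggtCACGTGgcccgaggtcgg
Ctsl and Gaa also had 1 core each. A match of letters is not evidence that a factor bound there.

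**Figure D1:**
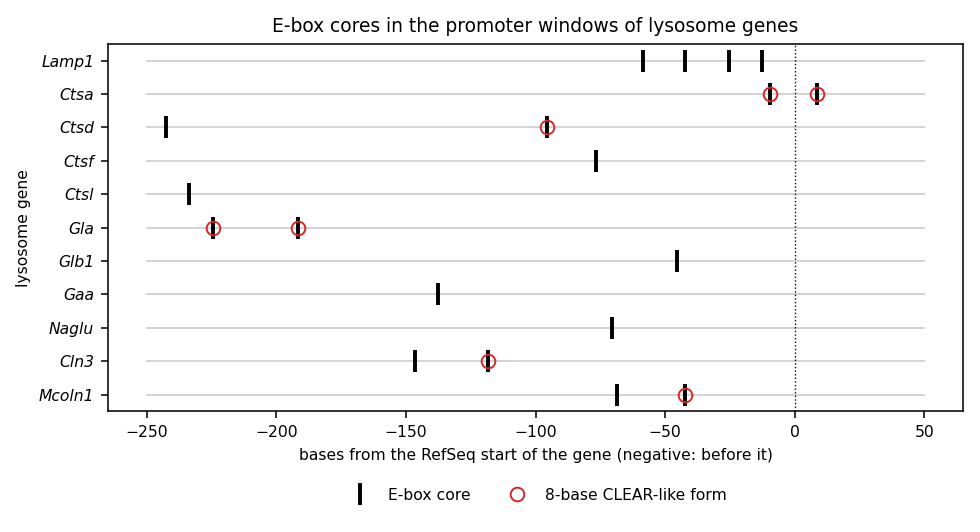
Each grey line is the promoter window of one of the 11 lysosome genes that held an E-box core, from 250 bases before to 50 bases after the RefSeq start. Black ticks mark cores and red circles the 8-base form: Lamp1 had 4 cores, Ctsa, Ctsd, Gla, Cln3 and Mcoln1 had 2, and the other genes had 1.

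Members with and without the E-box moved both ways after stimulation, counted at an adjusted p under 0.05. At 24 h in WT cells, where 36.6% of all genes tested rose and 34.8% fell, 4 of the 11 members with a core rose and 6 fell, with a median log2 fold change of -0.22. Of the 16 members whose window lacked it, 3 rose and 10 fell, with a median of -0.46. In Aim2-/- cells at 24 h (36.8% and 33.5% of all genes), 4 of the 11 rose and 4 fell (median -0.04), and 3 of the 16 rose and 8 fell (median -0.35). Asah1, Ctsb, Ctsh and Npc1 had no window.

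Library totals ranged from 19715161 to 21627018 counts, and 3 counts, taken as the floor of detection, corresponded to 0.129 to 0.155 CPM (counts per 1e6 counts). The knocked-out gene checked the labels. In the Aim2-/- mice Aim2 lay between 5.28 and 20.1 CPM over all times, and in WT 3 and WT 4 between 32.5 and 74.9 CPM. The mouse labelled WT 1 had 21.5, 17, 11.5 and 5.57 CPM at 0, 3, 6 and 24 h, within or near the Aim2-/- range. Its label thus goes against this gene, and the calls between genotypes are given with and without it. Which exons the knockout removes is not given in the sources used here, so remaining reads do not show that a product is made. The CD4+ T cell identity was checked with 10 T cell genes, whose summed level was 6168 to 6609 CPM over the 6 libraries at 0 h, while of the CD8+ T cell markers Cd8a was at 0 to 0.774 CPM and Cd8b1 at 7.77 to 11.3 CPM. Models of Ctsd, Ctsl, Ctss, Glb1, Manba and Cln3 overlap another gene on their own strand, so their counts may hold or lose reads of it. Markers of other cells were present and higher in the Aim2-/- libraries. The summed level of 18 myeloid markers at 0 h was 78.3 to 110.4 CPM in WT and 192 to 550.2 CPM in Aim2-/- cells, and 6 of the 18 were called higher in Aim2-/-. No myeloid marker was at 0 counts in every WT library at 0 h, and Fcgr1 was at 0 counts in WT 3. B cell markers, mostly Ighm, summed to 354 to 862 CPM in WT and 4402 to 6205 CPM in Aim2-/- cells. Neutrophil and basophil markers summed to 39.8 to 43.8 CPM in WT and 181 to 457 CPM in Aim2-/- cells at 0 h, with 8 of 13 called higher, NK cell markers to 43.5 to 59.1 and 115 to 129.8 CPM (1 of 6), erythroid markers to 25.7 to 84.5 and 39.4 to 398 CPM (0 of 8), and dendritic cell markers to 42.5 to 53.3 and 61.6 to 113 CPM (1 of 8). In bulk samples, fewer cells of a type and less RNA per cell cannot be told apart.

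Which lysosome genes changed after stimulation was tested first, for each genotype against its own 0 h libraries. More members fell than rose at every time. A gene was called at a Benjamini-Hochberg adjusted p under 0.05 in edgeR's quasi-likelihood test, with adjustment over all 15325 genes tested, and all 31 members passed the filter on low counts. In WT cells 5 members rose and 11 fell at 3 h, where 16.2% of all genes tested rose and 16.4% fell. At 6 h 7 rose and 16 fell (26.4% and 24.8% of all genes), and at 24 h 9 rose and 17 fell (36.6% and 34.8%). In Aim2-/- cells 4 members rose and 12 fell at 3 h (16.1% and 14.6% of all genes), 7 rose and 13 fell at 6 h (28.5% and 22.7%), and 7 rose and 14 fell at 24 h (36.8% and 33.5%). The share of members that rose was thus below or near that of all genes, and the share that fell was above it. The median log2 fold change of the members was -0.18, -0.34 and -0.28 in WT cells and -0.20, -0.26 and -0.12 in Aim2-/- cells at 3, 6 and 24 h, against medians between -0.01 and 0.08 over all genes. Together the members took 0.443% to 0.494% of the counts at 0 h and 0.319% to 0.356% at 24 h. In WT cells the 24 h values of 9 members lay wholly above those at 0 h and those of 16 wholly below. Of all genes tested, 39.3% lay wholly above and 37.3% wholly below. In Aim2-/- cells 6 members lay wholly above and 14 wholly below, against 37.3% and 33.6% of all genes. Without the mouse labelled WT 1, 9 members rose and 16 fell in WT cells at 24 h. Without Aim2-/- 1, which had the highest myeloid sum, 7 rose and 14 fell in Aim2-/- cells at 24 h.

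**Figure D2:**
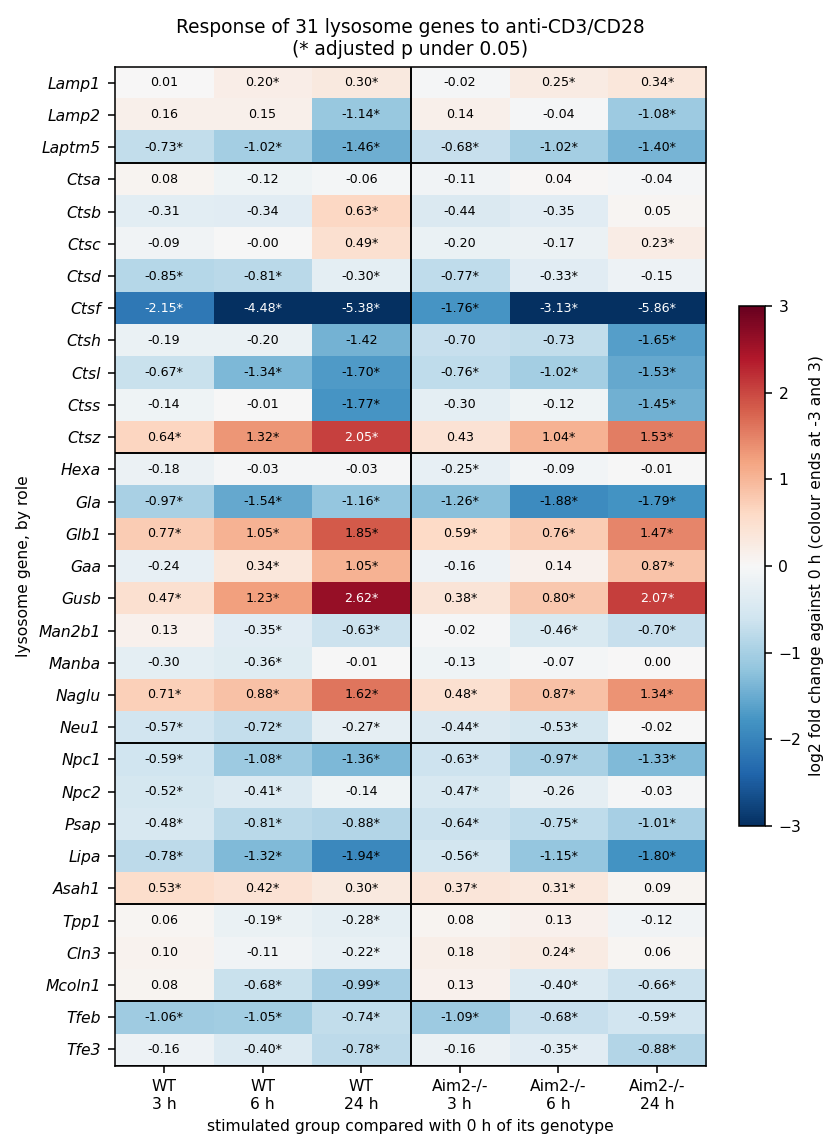
Log2 fold change of each of the 31 lysosome genes (rows, grouped by role) against 0 h of the same genotype at 3, 6 and 24 h (columns). Asterisks mark an adjusted p under 0.05. The largest rises at 24 h are those of Ctsz and of the glycosidases Gusb, Glb1, Naglu and Gaa. Of the 9 glycosidases, 4 rose and 3 fell in WT and 4 rose and 2 fell in Aim2-/- cells at 24 h. Ctsf has the deepest falls, -5.38 in WT and -5.86 in Aim2-/- cells at 24 h.

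Of the 3 members grouped as membrane proteins, Lamp1 rose slightly and Lamp2 and Laptm5 fell. Some members of other groups also lie in the membrane. Lamp1, a principal structural glycoprotein of the lysosomal membrane, was at 191, 197 and 203 CPM in WT 1, 3 and 4 at 0 h, 199, 203 and 193 CPM at 3 h, 215, 230.2 and 232 CPM at 6 h, and 231, 248 and 249 CPM at 24 h. Levels in Aim2-/- 1, 2 and 4 were 187, 182 and 204 CPM at 0 h, 181, 182 and 201 CPM at 3 h, 220.4, 239.5 and 222 CPM at 6 h, and 226, 258 and 242 CPM at 24 h. In both genotypes the 0 h and 24 h values did not overlap, and the log2 rise at 24 h was 0.30 (SE 0.07, adjusted p = 0.000776) in WT and 0.34 (SE 0.07, adjusted p = 0.000213) in Aim2-/- cells.

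Laptm5, a lysosomal membrane protein that sends T cell receptor chains to degradation, was the most abundant member in reads. Its level in WT cells was 1478, 1584 and 1645 CPM at 0 h, 939.9, 923 and 974 CPM at 3 h, 824, 753 and 738 CPM at 6 h, and 629, 553 and 530.1 CPM at 24 h. Aim2-/- cells had 1537, 1655 and 1684 CPM at 0 h, 1007, 971 and 1065 CPM at 3 h, 883, 845 and 675 CPM at 6 h, and 619, 664 and 561 CPM at 24 h. Every stimulated library was below every 0 h library. Laptm5 changed by -1.46 on the log2 scale at 24 h in WT (SE 0.10, adjusted p = 3.27e-11) and by -1.40 in Aim2-/- cells (SE 0.10, adjusted p = 7.93e-11). Lamp2, needed for fusion with autophagosomes, was called at 24 h only, at -1.14 and -1.08. It was between 44.5 and 71.6 CPM in all libraries up to 6 h and between 22.9 and 33.8 CPM at 24 h.

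The 9 cathepsins moved in opposite directions. Ctsz (ENSMUSG00000016256, chr2:174427493-174439039), a carboxypeptidase, rose, and Ctsf, Ctsl and Ctss fell in both genotypes. Ctsz in WT cells was at 39.8, 37.5 and 37.8 CPM at 0 h, 73.8, 57.0 and 48.9 CPM at 3 h, 98.4, 101 and 89.1 CPM at 6 h, and 161, 161 and 155 CPM at 24 h. In Aim2-/- cells it was at 81.2, 52.8 and 66.9 CPM at 0 h, 112, 69.5 and 89.1 CPM at 3 h, 151, 126 and 135 CPM at 6 h, and 227, 162 and 191 CPM at 24 h. The 24 h values lay above all 0 h values of the same genotype. The log2 change at 24 h was 2.05 in WT (SE 0.17, adjusted p = 9.37e-10) and 1.53 in Aim2-/- cells (SE 0.17, adjusted p = 6.73e-08). Summed myeloid markers went the other way, to 27.7 to 48.4 CPM in WT and 56.9 to 257 CPM in Aim2-/- cells at 24 h. The dendritic cell sum rose, from 42.5 to 53.3 CPM up to 129.8 to 139.9 CPM in WT cells. In Aim2-/- cells it rose from 61.6 to 113 CPM up to 139 to 196 CPM. Of the 8 dendritic cell markers tested, 2 were called higher and 3 lower in WT, and 2 higher and 4 lower in Aim2-/- cells. Their median log2 change at 24 h was -2.23 in WT and -1.87 in Aim2-/- cells, so the sum did not follow the typical marker.

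Ctsf (ENSMUSG00000083282, chr19:4855130-4860918), a cysteine protease, had the largest fall of the 31 genes at 6 and 24 h. WT cells had 14.2, 15.8 and 17.5 CPM at 0 h, 4.26, 2.27 and 4.16 CPM at 3 h, 0.798, 0.486 and 0.827 CPM at 6 h, and 0.557, 0.360 and 0.205 CPM at 24 h. Aim2-/- cells had 14.9, 20.3 and 15.3 CPM at 0 h, 5.20, 4.54 and 5.13 CPM at 3 h, 2.46, 2.12 and 1.15 CPM at 6 h, and 0.147, 0.554 and 0.154 CPM at 24 h. It was lower at each later time in all 6 mice. The 24 h values rest on 11, 7 and 4 counts in WT and 3, 11 and 3 counts in Aim2-/- cells, so they lie at or near the floor. The fitted log2 change at 24 h was -5.38 in WT (SE 0.41, adjusted p = 1.7e-10) and -5.86 in Aim2-/- cells (SE 0.42, adjusted p = 1.05e-10).

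Ctsl, a cysteine protease of broad specificity, fell by 1.70 on the log2 scale in WT and by 1.53 in Aim2-/- cells at 24 h (adjusted p = 8.2e-08 and 3.65e-07). Ctss, the protease that trims the invariant chain of MHC class II in antigen-presenting cells, was at 136 to 195 CPM in all libraries up to 6 h and at 40.4 to 89.8 CPM at 24 h. Its log2 change at 24 h was -1.77 in WT and -1.45 in Aim2-/- cells, and with a myeloid marker score as a term in the fit it was -1.51 and -1.20. The score itself fell from 0 h to 24 h in every mouse, so score and time cannot be told apart fully. Myeloid markers fell over the same interval, 9 of 18 called lower in WT and 11 of 18 in Aim2-/- cells.

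Ctsd, the main aspartic protease of lysosomes, fell early and came back. It was 114 to 149 CPM in WT cells at 0 h, 70.9 to 81.4 CPM at 3 h, and 102 to 116 CPM at 24 h. Its log2 change was -0.85, -0.81 and -0.30 in WT cells and -0.77, -0.33 and -0.15 in Aim2-/- cells at 3, 6 and 24 h, where the last value did not pass the test. Ctsb, a cysteine protease, was called only in WT cells at 24 h (0.63, SE 0.17, adjusted p = 0.00219), where it reached 331 to 415 CPM from 222 to 276 CPM. Ctsc, which activates granule serine proteases, was called higher at 24 h in both (0.49 and 0.23). In Aim2-/- cells its 0 h and 24 h values overlapped, Aim2-/- 1 changed by -0.04, and 6 of 12 alternative fits lost the call. Ctsh, an aminopeptidase, was low in WT cells (0.667 to 2.58 CPM over all times) and was called only in Aim2-/- cells at 24 h (-1.65, SE 0.70, adjusted p = 0.0419). That change was 0.0148 with the myeloid score, which itself fell by 24 h, as a term. Ctsa, the protective protein of beta-galactosidase and neuraminidase, was not called at any time, with log2 changes from -0.12 to 0.08.

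**Figure D3:**
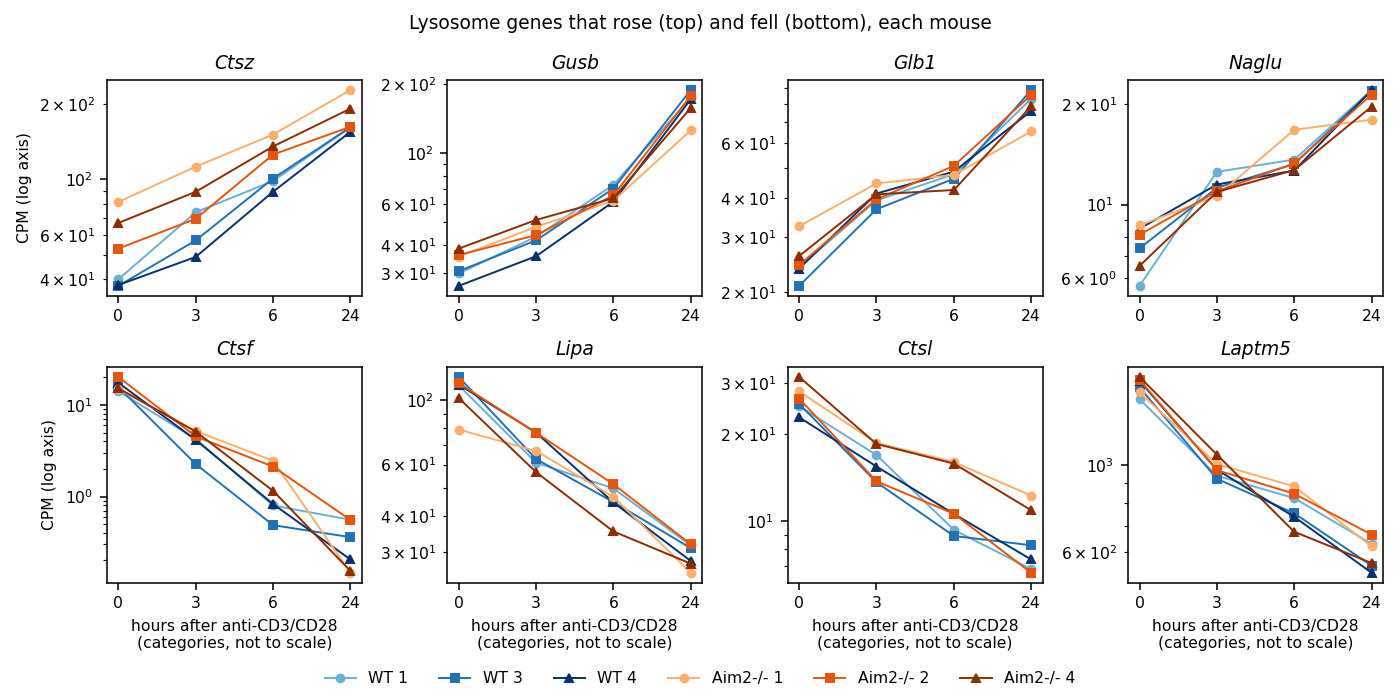
CPM on a log axis for 8 lysosome genes in each of the 6 mice at 0, 3, 6 and 24 h, with times as categories. The 4 genes of the top row rose by 24 h in every mouse, Gusb from 26.5 to 38.5 CPM up to 126 to 189 CPM, and the 4 of the bottom row fell in every mouse, Ctsf to 0.147 to 0.557 CPM.

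Among the 9 glycosidases, 4 rose in both genotypes at 24 h (Gusb, Glb1, Naglu and Gaa), and Gla and Man2b1 fell in both. Gusb (ENSMUSG00000025534, chr5:129989011-130003049), the beta-glucuronidase that degrades glycosaminoglycans, was at 30, 30.7 and 26.5 CPM in WT cells at 0 h, 43.4, 41.8 and 35.6 CPM at 3 h, 73.0, 70.3 and 61.6 CPM at 6 h, and 175, 189 and 173 CPM at 24 h. In Aim2-/- cells it was at 35.5, 36.1 and 38.5 CPM at 0 h, 47.9, 44.0 and 51.3 CPM at 3 h, 62.2, 65.6 and 63.8 CPM at 6 h, and 126, 179 and 158 CPM at 24 h. No 2 time points overlapped within a genotype. The change at 24 h was 6.16-fold in WT (log2 2.62, SE 0.11, adjusted p = 5.24e-14) and 4.20-fold in Aim2-/- cells (log2 2.07, SE 0.11, adjusted p = 1.25e-12).

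Glb1, the lysosomal beta-galactosidase, went from 20.9 to 24.0 CPM at 0 h to 76.0 to 88.6 CPM at 24 h in WT cells (log2 1.85) and from 24.4 to 32.5 CPM to 65.3 to 85.5 CPM in Aim2-/- cells (log2 1.47). Naglu, which acts on heparan sulfate, went from 5.70 to 8.46 CPM to 22.0 to 22.1 CPM in WT (log2 1.62) and from 6.54 to 8.66 CPM to 18 to 21.4 CPM in Aim2-/- cells (log2 1.34). Both were already called at 3 h in both genotypes. Gaa, the acid alpha-glucosidase that degrades glycogen, was called at 24 h in both (1.05 and 0.87), and at 6 h in WT cells (0.34).

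Gla (ENSMUSG00000031266, chrX:134588149-134601125), the alpha-galactosidase that acts on globotriaosylceramide, was the glycosidase that fell most. WT cells had 30.3, 27.3 and 30 CPM at 0 h, 15.1, 14.5 and 15.0 CPM at 3 h, 9.66, 9.10 and 11.3 CPM at 6 h, and 14.4, 13.2 and 11.5 CPM at 24 h. Aim2-/- cells had 50.1, 38.2 and 44.0 CPM at 0 h, 20.8, 15.8 and 18.6 CPM at 3 h, 13.1, 12.1 and 10.6 CPM at 6 h, and 11.5, 12.7 and 14.0 CPM at 24 h. Its lowest mean in WT cells was at 6 h. The log2 change at 24 h was -1.16 in WT (SE 0.13, adjusted p = 7.19e-08) and -1.79 in Aim2-/- cells (SE 0.13, adjusted p = 1.49e-10).

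Man2b1, the lysosomal alpha-mannosidase, fell at 6 and 24 h (-0.35 and -0.63 in WT, -0.46 and -0.70 in Aim2-/- cells). Neu1, the neuraminidase, fell in both genotypes at 3 and 6 h and at 24 h was at -0.27 in WT (called) and -0.02 in Aim2-/- cells (not called). Hexa, the alpha subunit of beta-hexosaminidase, was called only in Aim2-/- cells at 3 h (-0.25), and Manba, the beta-mannosidase, only in WT cells at 6 h (-0.36).

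Of the 5 lipid-handling members, Lipa, Npc1 and Psap fell at all 3 times, Npc2 fell early, and Asah1 rose. Lipa (ENSMUSG00000024781, chr19:34492318-34527474), the acid lipase that hydrolyses cholesteryl esters, was at 113, 120.4 and 113 CPM in WT cells at 0 h, 60.9, 62.7 and 77.4 CPM at 3 h, 49.7, 44.6 and 44.4 CPM at 6 h, and 31.6, 30.9 and 27.9 CPM at 24 h. Aim2-/- cells had 79.2, 115 and 102 CPM at 0 h, 66.9, 77.3 and 56.5 CPM at 3 h, 46.5, 51.4 and 35.3 CPM at 6 h, and 25.4, 31.9 and 27.3 CPM at 24 h. It fell at each step in all 6 mice. The log2 change at 24 h was -1.94 in WT (SE 0.15, adjusted p = 2.12e-10) and -1.80 in Aim2-/- cells (SE 0.15, adjusted p = 7.83e-10). Npc1, which exports cholesterol through the lysosomal membrane, changed by -1.36 and -1.33 at 24 h, while Npc2, its luminal partner, was called lower at 3 h (-0.52 and -0.47) and was near its 0 h level at 24 h (-0.14 and -0.03, neither called). Psap, the precursor of the saposins that present sphingolipids to hydrolases, changed by -0.88 and -1.01.

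Asah1, the acid ceramidase, rose early. It was at 21.2, 17.8 and 17.2 CPM in WT cells at 0 h, 26.4, 27.0 and 27.7 CPM at 3 h, 25.9, 22.6 and 26.9 CPM at 6 h, and 23.8, 24.1 and 21.4 CPM at 24 h. Aim2-/- cells had 25.2, 20.1 and 20.2 CPM at 0 h, 29.1, 29.2 and 26.5 CPM at 3 h, 29.2, 26.8 and 25.4 CPM at 6 h, and 23.1, 23.5 and 23.1 CPM at 24 h. At 24 h the change was 0.30 in WT (SE 0.11, adjusted p = 0.0144) and 0.09 in Aim2-/- cells (SE 0.10, adjusted p = 0.449).

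Mcoln1, the calcium-permeable cation channel of the lysosomal membrane, fell at 6 and 24 h and not at 3 h. WT cells had 66.8, 63.7 and 59.5 CPM at 0 h, 58.3, 66.8 and 75.3 CPM at 3 h, 41.7, 38.6 and 38.6 CPM at 6 h, and 32.0, 28.3 and 35.1 CPM at 24 h. Aim2-/- cells had 49.4, 58.2 and 43.2 CPM at 0 h, 55.1, 64.4 and 45.6 CPM at 3 h, 40.7, 40.2 and 33.4 CPM at 6 h, and 32.4, 29.6 and 33.8 CPM at 24 h. The log2 change at 24 h was -0.99 in WT (SE 0.13, adjusted p = 6.44e-07) and -0.66 in Aim2-/- cells (SE 0.13, adjusted p = 0.000131). Tpp1, a tripeptidyl peptidase, was called lower in WT cells at 6 and 24 h (-0.19 and -0.28). Cln3, a membrane protein of late endosomes and lysosomes, was called lower in WT cells at 24 h (-0.22) and higher in Aim2-/- cells at 6 h (0.24).

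Both transcription factors fell. Tfe3 in WT cells was at 114, 112 and 115 CPM at 0 h, 110.2, 94.8 and 101 CPM at 3 h, 88.4, 83.8 and 86.9 CPM at 6 h, and 70.4, 67.2 and 61.9 CPM at 24 h. In Aim2-/- cells it was at 125, 115 and 125 CPM at 0 h, 115, 104 and 106 CPM at 3 h, 97.6, 94.2 and 94.2 CPM at 6 h, and 64.9, 66.4 and 67.6 CPM at 24 h. Its log2 change at 24 h was -0.78 in WT (SE 0.07, adjusted p = 1.17e-09) and -0.88 in Aim2-/- cells (SE 0.07, adjusted p = 2.35e-10). Tfeb fell sooner. It went from 24.3, 28.3 and 30 CPM at 0 h to 13.5, 11.5 and 14.6 CPM at 3 h in WT cells and from 25.3, 27.9 and 31.4 CPM to 15.1, 13.3 and 11.4 CPM in Aim2-/- cells. Its log2 change at 3 h was -1.06 in WT (SE 0.16, adjusted p = 2.13e-05) and -1.09 in Aim2-/- cells (SE 0.16, adjusted p = 2.25e-05), and at 24 h -0.74 and -0.59. These are changes in RNA; the location of the proteins in the cell was not measured.

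The order of the levels also changed. Levels were divided by the merged length of all annotated exons of a gene, which can exceed the length of the transcript in the cell. Ranks across genes thus depend on the annotation. On this scale Laptm5 was first at 0 h with 414 ± 22.3 CPM per kb in WT cells (SD, n = 3). Psap (183 ± 12.2), Ctss (120.4 ± 10.6), Npc2 (92.2 ± 12.7) and Lamp1 (73.7 ± 2.31) followed. Ctsz, at rank 10, had 26.6 ± 0.879 CPM per kb. At 24 h in WT cells Laptm5 was still first (150.6 ± 13.6), Ctsz was next (110.5 ± 2.65), and Psap (99.4 ± 5.98), Lamp1 (90.6 ± 3.82) and Npc2 (84.0 ± 5.61) followed, where Psap and Lamp1, and Lamp1 and Npc2, differed by less than the sum of their SDs. In Aim2-/- cells the same 5 genes led at each of these times, in the same order. Ctsh and Ctsf were last at 24 h in both genotypes.

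Other genes of the lysosomal pathway, from lists that hold none of the 31 members, are given at 24 h, when 36.6% of all genes tested rose and 34.8% fell in WT and 36.8% rose and 33.5% fell in Aim2-/- cells. Of 21 other lysosomal membrane proteins, 1 rose and 14 fell in each genotype, led by Lmbrd1, a cobalamin exporter (-2.27 in WT, -2.38 in Aim2-/-), Sidt2, a nucleic acid transporter (-2.51 and -2.37), and Ctns, the cystine exporter (-1.47 and -1.14). Of 30 other hydrolases, 5 rose and 17 fell in WT and 4 rose and 14 fell in Aim2-/- cells. The asparaginyl protease Lgmn was at -3.28 and -2.42 and the cathepsin Ctso at -2.43 and -1.52, whereas Galns, a sulfatase, was at 1.60 and 1.33 and Aga, an aspartylglucosaminidase, at 0.93 and 0.78. Of 18 subunits of the proton pump V-ATPase, 5 rose and 7 fell in WT and 5 rose and 8 fell in Aim2-/- cells, with Atp6v0a1 (1.23, and 0.52 without a call in Aim2-/-), Atp6v1h (0.92 and 0.65) and Atp6v1a (1.00 and 0.55) among the rises and Atp6v0d1 (-1.43 and -1.47) and Atp6v1d (-1.47 and -0.91) among the falls. Of 17 sorting genes, 4 rose and 5 fell in WT and 3 rose and 6 fell in Aim2-/- cells. Igf2r, the large mannose 6-phosphate receptor, was at -1.74 and -1.59, and Gga2, an adaptor of that route, at 1.75 and 1.49.

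The 16 genes of nutrient sensing at the lysosomal surface are read against the same shares. In WT cells 9 rose and 4 fell at 24 h, and in Aim2-/- cells 7 rose and 4 fell. Fnip2, a partner of Flcn, was at 2.10 in WT and 0.85 in Aim2-/- cells. The Ragulator subunits Lamtor1 (1.02 in WT, 0.89 in Aim2-/-) and Lamtor5 (0.98 and 1.00) rose, and Flcn, which acts on the Rag GTPases, was at -1.43 and -1.50. The median of the list was 0.32 in WT and 0.49 in Aim2-/- cells, against -0.01 and 0.03 over all genes tested.

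Whether Aim2 deficiency altered the response was asked by setting the changes of both genotypes side by side and by a test of their difference. The responses were alike in direction. At 24 h, 20 members were called in both genotypes, 76.9% of the 26 called in WT and 95.2% of the 21 called in Aim2-/- cells, and all 20 moved the same way. At 3 h 15 and at 6 h 19 were called in both, again with the same sign. The log2 changes of the 31 genes correlated at r = 0.962, 0.961 and 0.982 at 3, 6 and 24 h, a description across genes, which are not independent replicates. Ctsb, Ctsd, Neu1, Asah1, Tpp1 and Cln3 were called only in WT cells at 24 h and Ctsh only in Aim2-/- cells, which does not show that their responses differed.

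The test of the difference called none of the 31 members at 3, 6 or 24 h with edgeR. Over all genes tested, 0%, 0.0261% and 0% were called higher at these times, and none lower. At an unadjusted p under 0.05 there were 0, 5 and 5 members (4.26%, 13.2% and 11.9% of all genes). Each mouse gave all 4 of its libraries, and with the mouse as a replicate block in the fit, 4 differences were called. Ctsd at 6 h differed by 0.47 (SE 0.13, adjusted p = 0.0391), the fall being smaller in Aim2-/- cells. The change at 24 h was lower in Aim2-/- cells for Gusb (-0.56, SE 0.12, adjusted p = 0.021), Ctsb (-0.56, SE 0.13, adjusted p = 0.0262) and Ctsz (-0.51, SE 0.13, adjusted p = 0.0334). Ctsb was not called as a rise in Aim2-/- cells, where the mice changed by -0.19, 0.29 and 0.10. In that paired fit, 2.30% of all genes were called higher and 2.38% lower at 6 h, and 1.5% and 1.27% at 24 h. Without the mouse labelled WT 1 the paired fit called the same 4 genes, with Ctsd at 0.58 and Gusb, Ctsb and Ctsz at -0.60, -0.59 and -0.53. At 0 h Gusb, Ctsb and Ctsz lay above WT in Aim2-/- cells without overlap, as did 14.1% of all genes tested. From 0 to 24 h mean B cell marker sums went from 5262 to 1077 CPM in Aim2-/- and from 596 to 387 CPM in WT cells. Mean myeloid sums went from 345 to 130 and from 97.0 to 37.1 CPM. The part of these markers in the differences was not tested, and the myeloid score was not fitted together with the block. Without the block, 95% intervals from a normal approximation were 0.17 to 0.77 for Ctsd at 6 h. At 24 h they were -0.84 to -0.26 for Gusb, -1.04 to -0.11 for Ctsb and -0.98 to -0.06 for Ctsz. These intervals are narrower than the quasi-likelihood test implies and are not adjusted for the number of genes tested.

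Levels were then compared between genotypes at each time. Ctsz and Gla were called higher in Aim2-/- than WT cells at 0 h, 6 members were called higher at 6 h, and none was called lower at any time. At 0 h 2 of 31 members were called higher, where 3.24% of all genes were called higher and 1.99% lower. At 3 h none was called (0.254% and 0.0392% of all genes), at 6 h 6 were (8.78% and 7.01%), and at 24 h none was (0.659% and 0.00653%). At an unadjusted p under 0.05 there were 8, 5, 11 and 4 members, against 23.8%, 15.3%, 34.1% and 20.5% of all genes. Values without overlap were common with 3 mice a genotype. At 0 h 9 members lay wholly above WT and 1 wholly below, against 14.1% and 14.4% of all genes. At 6 h 7 lay wholly above and 0 wholly below, against 18.6% and 17% of all genes. With the 4 libraries of each mouse summed, none was called (0.0117% of all genes higher), 5 had an unadjusted p under 0.05 (23.3% of all genes), and DESeq2 called 4.

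**Figure D4:**
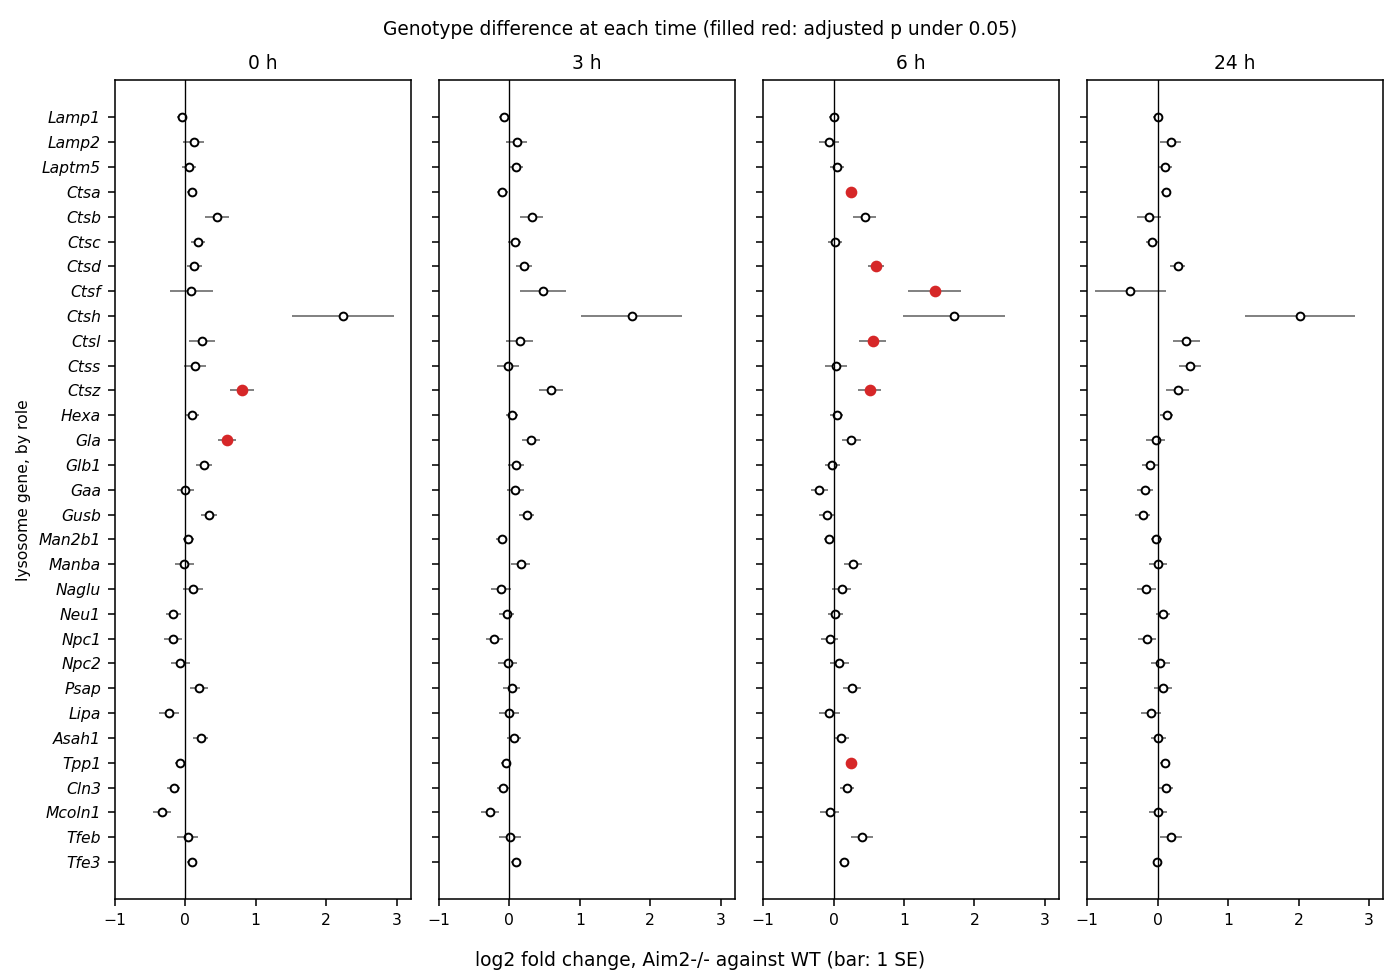
Log2 fold change of Aim2-/- against WT cells (points, bars 1 SE) for the 31 lysosome genes at each time. Filled red points passed the adjusted p of 0.05: Ctsz and Gla at 0 h, and Ctsa, Ctsd, Ctsf, Ctsl, Ctsz and Tpp1 at 6 h. Ctsh has the largest estimates (1.71 to 2.25) and the widest bars.

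Ctsz in all 3 Aim2-/- mice (52.8 to 81.2 CPM) was above all 3 WT mice (37.5 to 39.8 CPM) at 0 h, a log2 difference of 0.80 (SE 0.17, adjusted p = 0.0149). It was also above at 6 h, by 0.51 (SE 0.17, adjusted p = 0.0422). Without the mouse labelled WT 1 the differences were 0.83 (adjusted p = 0.0205) and 0.53 (adjusted p = 0.073). At 3 h Ctsz differed by 0.59, which was called with the replicate block (adjusted p = 0.0406) and without the mouse labelled WT 1 (adjusted p = 0.0409). The gene model of Ctsz overlaps Nelfcd on the other strand, and whether counting used strand is not stated.

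Gla was at 38.2 to 50.1 CPM in Aim2-/- and at 27.3 to 30.3 CPM in WT cells at 0 h, with no overlap (0.60, SE 0.13, adjusted p = 0.0149), and at 0.62 without the mouse labelled WT 1 (adjusted p = 0.0261). By 24 h the ranges overlapped (11.5 to 14.0 and 11.5 to 14.4 CPM).

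Ctsd at 6 h had 135, 101 and 115 CPM in Aim2-/- and 78.3, 74.6 and 78.1 CPM in WT cells. This was the lowest adjusted p among the members (0.60, SE 0.11, adjusted p = 0.00484), and the value was 0.61 without the mouse labelled WT 1 (adjusted p = 0.00674). At 0 h the ranges overlapped (138 to 155 and 114 to 149 CPM), at 3 h the Aim2-/- mice had 90.0, 80.9 and 87.8 CPM and the WT mice 81.4, 72.0 and 70.9 CPM, and at 24 h they had 142, 117 and 141 CPM and 116, 102 and 109 CPM. The Ctsd model shares its strand with the overlapping model Gm49369.

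Ctsf at 6 h was at 1.15 to 2.46 CPM in Aim2-/- and 0.486 to 0.827 CPM in WT cells (1.44, SE 0.37, adjusted p = 0.0188), at 24 to 56 and 10 to 18 counts per library. Without the mouse labelled WT 1 it was at 1.53 (adjusted p = 0.0371). Ctsl had 28.1, 26.5 and 31.5 CPM in Aim2-/- and 24.9, 25.4 and 22.9 CPM in WT cells at 0 h, 18.6, 13.7 and 18.5 against 16.9, 13.6 and 15.5 CPM at 3 h, 16.0, 10.6 and 15.8 against 9.35, 8.90 and 10.6 CPM at 6 h, and 12.3, 6.65 and 10.9 against 6.84, 8.27 and 7.39 CPM at 24 h. The call at 6 h was marginal (0.56, SE 0.19, adjusted p = 0.0497) and the Aim2-/- 2 value lay beside the highest WT value.

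Ctsa and Tpp1 had small differences at 6 h. Ctsa was at 129.9, 114 and 128 CPM in Aim2-/- and 112, 122 and 115 CPM in WT cells at 0 h, 115, 115 and 116 against 119, 117 and 134 CPM at 3 h, 141, 118 and 123 against 107, 103 and 110.4 CPM at 6 h, and 123, 117 and 123 against 110.2, 111 and 113 CPM at 24 h. Tpp1 was at 76.8, 80.4 and 79.7 CPM in Aim2-/- and 80.2, 85.5 and 83.0 CPM in WT cells at 0 h, 85.4, 84.7 and 80.6 against 87.0, 81.4 and 90.1 CPM at 3 h, 97.2, 79.9 and 81.5 against 75.4, 70.2 and 71.9 CPM at 6 h, and 73.2, 70.2 and 75.0 against 69.6, 69.1 and 65.5 CPM at 24 h. Both were called at 0.25 at 6 h (SE 0.07, adjusted p = 0.028 for Ctsa and 0.0261 for Tpp1). Without the mouse labelled WT 1 the adjusted p was 0.0718 for Ctsa, 0.0494 for Tpp1 and 0.128 for Ctsl. Ctsb (0.63) and Manba (0.43) were then called at 6 h, and at 0 h Ctsb (0.56) was called higher and Neu1 (-0.30) lower.

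Ctsh had the largest genotype estimates, 2.25, 1.74, 1.71 and 2.02 at 0, 3, 6 and 24 h, none of them called (SE 0.72 to 0.78), and 2.29, 2.01, 2.20 and 2.03 without the mouse labelled WT 1, again not called. At 0 h it was at 14.7, 5.07 and 7.03 CPM in Aim2-/- and at 2.00, 2.58 and 1.06 CPM in WT cells. At 24 h it was at 6.79, 0.604 and 1.13 CPM and at 0.709, 0.719 and 0.667 CPM. Aim2-/- 1 was the highest in all 4 comparisons, and this mouse also had the highest myeloid sum at each time, 550.2 CPM at 0 h and 257 CPM at 24 h. With the replicate block Ctsh was called at 0 h (2.18, adjusted p = 0.0174).

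**Figure D5:**
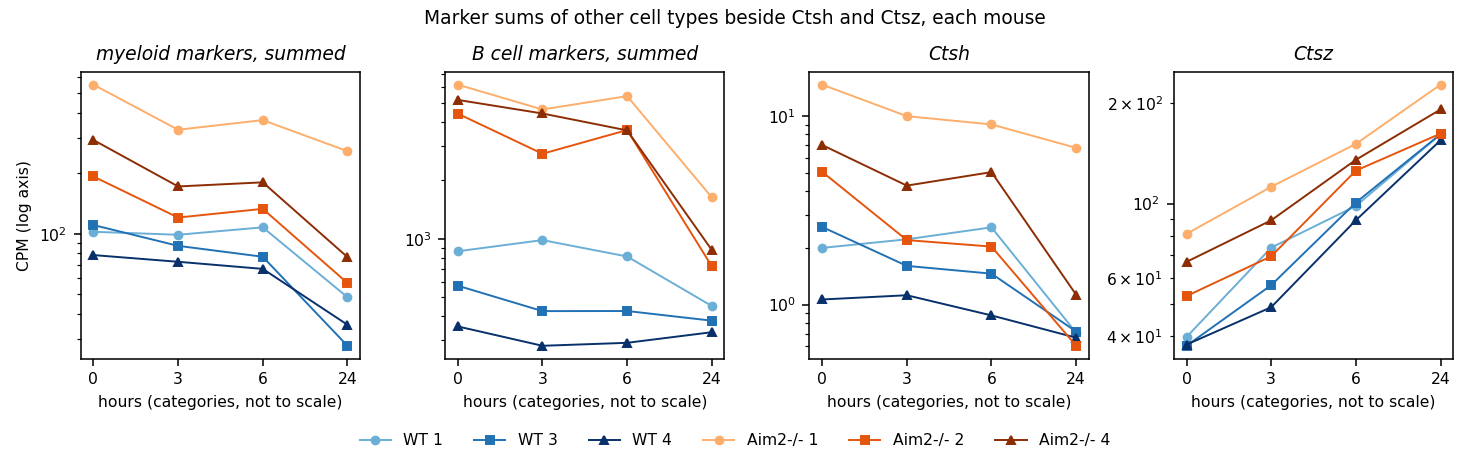
Summed CPM of 18 myeloid markers and of the B cell markers, and CPM of Ctsh and Ctsz, in each of the 6 mice at 0, 3, 6 and 24 h on log axes. The mouse Aim2-/- 1 is highest for myeloid markers, Ctsh and Ctsz at every time. Ctsz rises to 155 to 227 CPM at 24 h while the myeloid and B cell sums and Ctsh are lower than at 0 h.

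Markers of other cells differed along with these genes. At both 0 h and 6 h, 6 of the 18 myeloid markers, 8 of 13 neutrophil and basophil markers and 4 of 10 tested B cell markers were called higher in Aim2-/- cells. The part of the neutrophil, basophil and B cell markers in these results was not tested. With the myeloid marker score as a term in the fit no member was called at 0 h or 6 h. Ctsz was then at 0.36 at 0 h (adjusted p = 0.181) and at 0.13 at 6 h (adjusted p = 0.642), Gla at 0.47 at 0 h (adjusted p = 0.168), Ctsd at 0.41 at 6 h (adjusted p = 0.0826) and Ctsh at 0.15 at 0 h (adjusted p = 0.879). The score itself differed between the genotypes, so score and genotype cannot be told apart fully in these 6 mice. Without Aim2-/- 1, Ctsz at 0 h and Ctsd at 6 h were the only genotype calls among the members at those times. Without WT 4 there was none.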

How the data were processed

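The authors aligned stranded mRNA reads with STAR to GRCm38, per the labels' processing notes, and deposited raw counts per Ensembl gene. Whether counting used the strand is not stated, so the counts of the 13 members that overlap another gene model are uncertain. Positions came from GENCODE of the same build (54409 of 54446 identifiers matched) and promoter sequences from RefSeq. Members and lists were chosen with earlier results of these data known. All 24 libraries were fitted as 8 groups with edgeR 4.0.16 (R 4.3.3; TMM factors, filterByExpr with a minimum count of 10, quasi-likelihood F test, Benjamini-Hochberg adjustment over 15325 genes). CPM used TMM-scaled totals. For the edgeR fits the SE was derived from the test, as the absolute log2 fold change divided by the square root of its F statistic. The floor of 3 counts was a fixed setting and covers counting error only. At totals of 19715161 to 21627018 counts it corresponded to 0.129 to 0.155 CPM. Mice are separate animals per the labels, and each gave all 4 times. Libraries of the same mouse deviated together from their group means (r = 0.139 to 0.567 over 36 pairs). Other mice of the same genotype at another time gave -0.432 to 0.0742 over 72 pairs. Deviations from means of 3 libraries push those pairs to negative values when same-mouse pairs are positive, so they are not an independent contrast. The mouse was therefore used as a block in an alternative fit, in limma 3.58.1 with an estimated correlation for genotype contrasts. DESeq2 1.42.0 and limma-voom were further alternatives. Values in every library are given for the member of each role that moved most in each direction at 24 h and for members called between genotypes, and all 31 are named. Other lists are named by up to 3 rises and 3 falls at 10 CPM or more. The edgeR, limma-voom and DESeq2 fits were tested on simulated counts with independent libraries, so the shared deviation of a mouse's libraries was not part of that check. The fits with the block, the myeloid score or summed libraries were not simulated.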

Additional observations from a re-analysis of the deposited data

Results flagged for a closer look

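Cln3 moved in opposite directions in the mice of each genotype between 0 h and 24 h. The mean log2 change was -0.220 over the 3 WT mice, each of which fell (-0.11, -0.46 and -0.09), and 0.0589 over the 3 Aim2-/- mice, each of which rose (0.12, 0.01 and 0.05). Several of these changes are close to 0. The test of the difference in response gave 0.28 (SE 0.14, adjusted p = 0.427 with edgeR), so it was not called. The Cln3 model overlaps Apobr on the other strand and Mir7059 on its own. Groups of 3 were too small for the check of single libraries that lie apart.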

How the results depend on the processing

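Of 122 calls of members after stimulation, 93 kept their direction and side of the threshold in all 12 alternatives that applied, and 1 changed sign: Ctsh in Aim2-/- cells at 24 h was 0.0148 with the myeloid marker score as a term. Of the 8 genotype calls, none kept its side in all 15 alternatives. Members called in Aim2-/- cells at 3 h were 10 without Aim2-/- 4 and 10 to 15 over the mice left out. Between genotypes at 0 h, 4 members were called with no filter on low counts, 0 with the myeloid score, and 0 to 6 over the mice left out (6 without Aim2-/- 2, 4 without WT 1, 1 without Aim2-/- 1, 0 without Aim2-/- 4, WT 3 or WT 4). At 3 h the count was 1 with DESeq2, 2 without the filter, 1 with the replicate block and 0 to 2 over the mice left out. At 6 h it was 3 with RLE factors, 2 with only the compared libraries, 0 with the myeloid score and 0 to 7 over the mice left out (2 without Aim2-/- 4, 1 without Aim2-/- 1 or WT 3, 0 without WT 4). At 24 h it was 1 without the filter and 0 to 5 over the mice left out (5 without Aim2-/- 2). For the difference in response, the replicate block called 1 member at 6 h and 3 at 24 h, and the same numbers with the mouse labelled WT 1 also left out, an alternative chosen after seeing the data. Leaving mice out gave 0 to 1 at 24 h (1 without Aim2-/- 2). Summed by mouse, DESeq2 called 4, no filter 1, and leaving mice out 0 to 6 (6 without Aim2-/- 2). The cause of these shifts was not tested. Scaling by library totals moved the median of all genes by 0.11 in WT and 0.12 in Aim2-/- cells at 3 h, and by 0.12 in Aim2-/- cells at 6 h. With it 21.9% of genes were called higher and 11.8% lower in WT at 3 h, with 6 members higher and 11 lower. The corresponding shares in Aim2-/- cells were 22.5% and 9.98% at 3 h, with 6 and 11 members, and 33.7% and 18.2% at 6 h, with 8 and 11. Depth limits Ctsf at 24 h and Ctsh in WT cells, at 3 to 58 counts per library. With 3 mice a genotype, 1 mouse changes most genotype calls.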
